A study of Schizosaccharomyces pombe with 6 samples.

Results

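Of 6 arrays in all, 4 whose DNA lacked part of the rad3 gene were set against 2 whose DNA held it. The members were chosen by a measured value of the input DNA: the log2 input signal, relative to the array median, was averaged over the 9 probes at II 909012 to 911114, inside the rad3 coding sequence. An array with a mean under -2 was counted as lacking rad3 DNA. The arrays lacking it were the 3 labelled Δrad3 and the one labelled WT replicate 2, and the 2 holding it were WT replicates 1 and 3. The split therefore goes against 1 label, and it is not one of the study's own groups.

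The study mapped Rad52 in fission yeast (Schizosaccharomyces pombe) by chromatin immunoprecipitation on tiling arrays, with 3 arrays labelled Δrad3 (deletion of rad3) and 3 labelled wild type (WT). All strains shared the cdc25-22 allele, which stops cells before mitosis when warm, since the Cdc25 phosphatase drives mitotic entry. Cells stood at 36.5 °C during 4 h, went to 25 °C, met 6 mM hydroxyurea (HU, an inhibitor of ribonucleotide reductase that slows replication forks) and were harvested at 60 min. The labels of the Δrad3 arrays and of WT replicate 3 place the HU 10 min into the release and carry an RNA protocol text, while those of WT replicates 1 and 2 carry a chromatin text naming an anti-Rad52 antibody. No label says whether replicates were separate cultures, so p-values measure the spread between these arrays, whatever its source.

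Rad3 is the fission yeast kinase of the ATR family. It is recruited to single-stranded DNA at stalled forks and activates the effector kinase Cds1, which slows further origin firing and keeps forks stable. Rad52 is a recombination protein that binds single-stranded DNA and anneals complementary strands. In fission yeast, replication starts at intergenic stretches rich in A and T, and the recombination proteins gather where forks collapse.

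Replicates 1, 2 and 3 of both labels lay on slides 1, 2 and 3, so each slide held 1 Δrad3 and 1 WT array. Slide 2 held only arrays lacking rad3 DNA. The file headers name a ChIP protocol of Feature Extraction for both arrays of slide 2 and a CGH protocol for the other 4. The part of this difference in the results was not tested. On each array 97.9% to 99.9% of the 42707 probes stood well above background in input DNA, and 94.1% to 99.9% in the immunoprecipitate (IP). The weakest arrays were those of slide 3, with a median input signal of 6.53 times the local background on Δrad3 replicate 3 and 5.04 times on WT replicate 3, against 9.58 times or more on the other 4. The inputs of slide 3 also correlated at 0.97 over bins with each other and at 0.60 to 0.73 with the rest, while the other inputs correlated at 0.84 to 0.93.

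At rad3, the probes that set the split were at background on every array lacking rad3 DNA. Their mean log2 input signals were -5.50, -6.18 and -5.49 on Δrad3 replicates 1, 2 and 3 and -6.18 on the array labelled WT replicate 2, against -0.41 and -0.64 on WT replicates 1 and 3. The values next to the threshold of -2 were thus -5.49 inside it and -0.64 outside it. None of the 9 probes was well above background in either channel on the 4 arrays. The IP channel, which the rule did not use, had the same hole, with means of -5.74, -4.89 and -4.53 on the Δrad3 arrays and -5.17 on the array labelled WT replicate 2, against -0.43 and -0.60 on WT replicates 1 and 3.

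The holes had a common right edge and 2 different left edges. On the Δrad3 arrays the left edge lay between probes ending at 908759 and starting at 909012, which is between codons 1465 and 1550 of the 2386 in rad3. On the array labelled WT replicate 2 it lay between 904382 and 904607, from codon 6 to codon 81. The right edge lay between 911114 and 911264 on all 4 arrays, between codons 2250 and 2300. The missing stretch thus spanned 2103 bp and 9 probes on the Δrad3 arrays and 6508 bp and 24 probes on the array labelled WT replicate 2. Both holes end inside the coding sequence, and the 12 probes of swi1 beyond them, which include the coding sequence of this fork protection gene on the opposite strand, had mean inputs of -0.13, -0.25, 0.13 and -0.15 on the 4 arrays in the order above, against -0.11 and 0.12 on WT replicates 1 and 3.

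Sequences at 2 landmarks place the holes on the gene. The first is the beginning of the coding sequence, where the larger hole starts, with the start codon in capitals (II:904365-904424). The second is the stretch that encodes the catalytic loop of the kinase domain, with the loop's codons from aspartate to asparagine in capitals (II:911031-911090). Both come from RefSeq's ASM294v3, forward strand, by its own annotation of rad3.
Start of the rad3 coding sequence: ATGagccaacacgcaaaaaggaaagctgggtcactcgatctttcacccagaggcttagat
Catalytic loop of the rad3 kinase domain: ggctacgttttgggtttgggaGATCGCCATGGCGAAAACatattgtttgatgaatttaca
The loop's first codon is codon 2230, which precedes the right edge, so the loop lies at the last missing probe on all 4 arrays. The start codon lies in the last bright probe before the larger hole, whose input was 1.05 on the array labelled WT replicate 2. Coordinates of the arrays follow an older build that matched ASM294v3 here only to within a few bases, so edges are given by probes and no base is assigned to them.

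**Figure D1:**
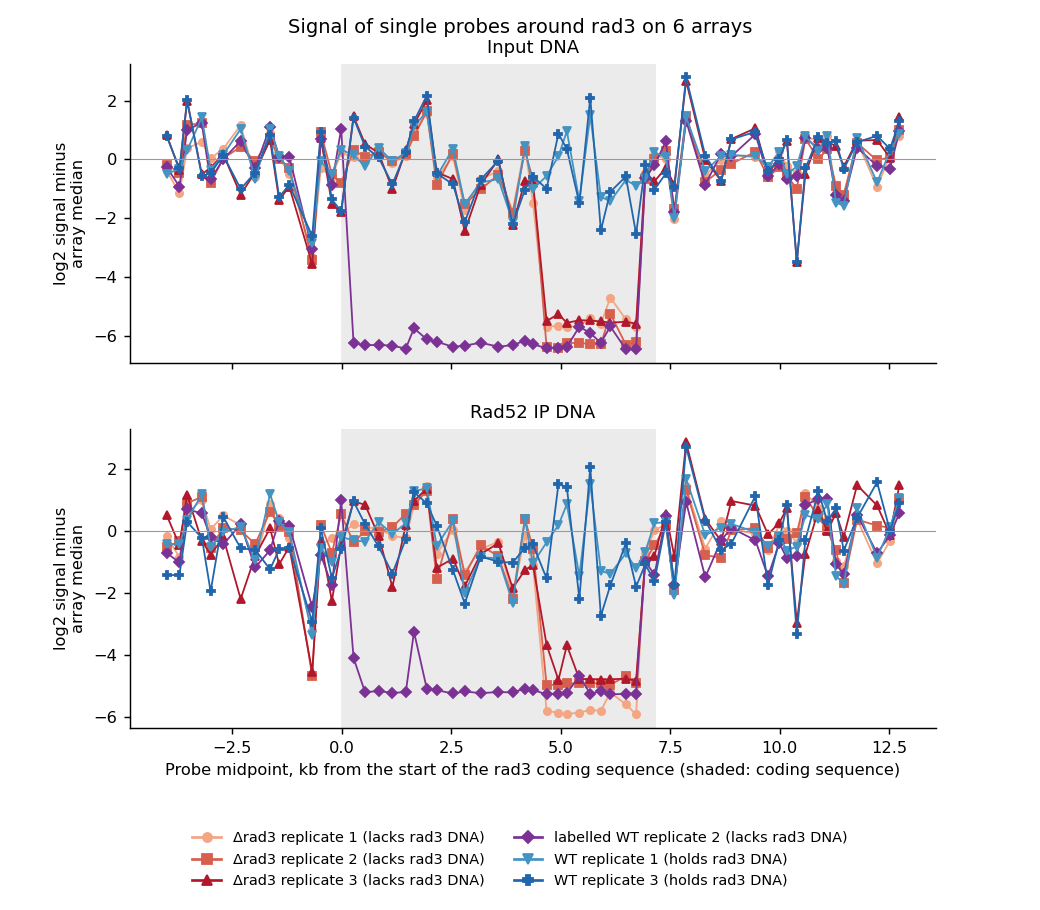
Log2 input signal (top) and log2 IP signal (bottom) of single probes, each relative to its array median, against distance in kb from the start of the rad3 coding sequence (shaded), for the 4 arrays lacking and the 2 arrays holding rad3 DNA. In the input, the Δrad3 arrays drop below -4 at 9 probes in the right part of the coding sequence, the array labelled WT replicate 2 at 24 probes, and WT replicates 1 and 3 at none.

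Input DNA at the auxotrophic marker genes separated the arrays too. ura4 (orotidine phosphate decarboxylase) and his3 (histidine biosynthesis) are both used as selectable markers in gene deletions in this yeast. At the 4 probes of ura4 (III 115589 to 116625) the mean log2 input was 0.71, 0.59 and 1.06 on the Δrad3 arrays and 0.77 on the array labelled WT replicate 2, against 0.03 and 0.25 on WT replicates 1 and 3. All 4 arrays lacking rad3 DNA lay above both arrays holding it, and the difference was 0.68 within slide 1 and 0.81 within slide 3, where a doubling of DNA is 1 on this scale. Within both slides the raised stretch ran from the probe at 115344 to the one ending at 117114, with differences of 0.49 to 1.33. The probe before it differed by 0.43 and -0.01, the one after it by -0.07 and 0.14. The following probe, at 117553, differed by 0.81 and 0.26. On slide 2 the array labelled WT replicate 2 exceeded Δrad3 replicate 2 by 0.69, 0.60 and 0.35 at the probes from 115344, 115526 and 115767. Over the rest of the stretch it differed from it by -0.27 to 0.22. In the IP channel ura4 stood at 0.96, 0.84 and 1.20 on the Δrad3 arrays and 1.14 on the array labelled WT replicate 2, against 0.08 and 0.24 on WT replicates 1 and 3, so that IP/input differed by 0.20 and 0.18 within slides 1 and 3.

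At his3 (II 1488036 to 1489690, 5 probes) a single array stood apart. The mean input was 0.53 on the array labelled WT replicate 2 and -0.50, -0.51 and -0.73 on the Δrad3 arrays, against -0.47 and -0.60 on WT replicates 1 and 3. Against Δrad3 replicate 2 on the same slide, the 6 probes from 1487995 to 1489823 were higher by 0.77 to 1.42 on the array labelled WT replicate 2, and the probe before them differed by -0.04. Input at leu1, ade6, his7, arg3 and cdc25 overlapped between the arrays lacking and holding rad3 DNA. The array labelled WT replicate 2 therefore shared high ura4 input with the Δrad3 arrays and differed from them both in the length of the rad3 hole and at his3.

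**Figure D2:**
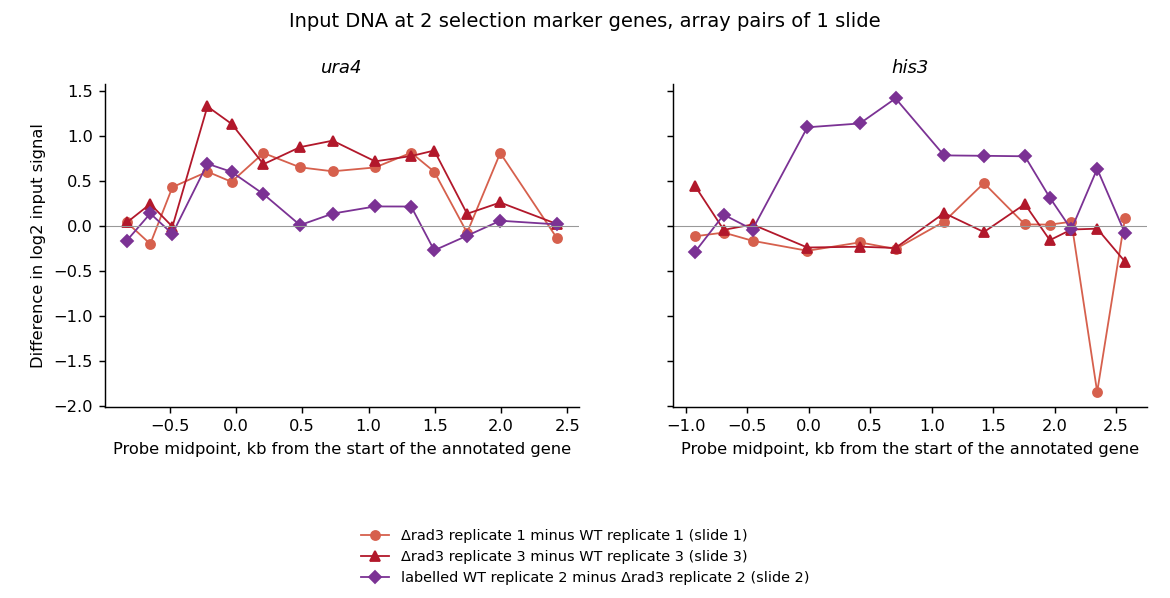
Difference in log2 input signal of single probes between the 2 arrays of 1 slide, against distance in kb from the start of the annotated gene, at ura4 (left) and his3 (right). At ura4 the pairs of slides 1 and 3 run between 0.49 and 1.33 over the raised stretch; at his3 only the pair of slide 2 is raised, by 0.77 to 1.42 over 6 probes.

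Across the rest of the genome, no bin of input DNA passed the test between the arrays lacking and holding rad3 DNA. limma called 0 of 12051 1-kb bins higher and 0 lower at a Benjamini-Hochberg adjusted p under 0.05 (0.0% in each direction), with 36 higher (0.299%) and 8 lower (0.0664%) at an unadjusted p under 0.05. All 4 arrays lacking rad3 DNA were above both others in 228 bins (1.89%) and below both in 212 (1.76%). As a mean over the outermost 200 kb, input did separate the groups at both ends of chromosome I. At its right end the arrays lacking rad3 DNA had 0.10 to 0.11, against -0.03 and -0.10 on WT replicates 1 and 3. At its left end they had 0.09 to 0.22, against 0.03 and -0.04. At the left end of II the inputs overlapped. Runs of 3 or more bins in which 1 array's input left the median of the other 5 by 0.8 numbered 20 upward and 6 downward on WT replicate 3 and 17 upward and 2 downward on Δrad3 replicate 3, and 4 in total on the other 4 arrays. Most such runs lay on the 2 arrays of slide 3, of which 1 lacks and 1 holds rad3 DNA. The 15-probe stretch of rad3 missing from the array labelled WT replicate 2 alone was the longest run of single probes with input at least 2 below the median of the 6 arrays on some arrays only. The others, of 3 probes each at I 2959464 to 2959860 and II 2552531 to 2552979, were low on both arrays of slide 3.

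In Rad52 IP/input (log2, array median at 0), the arrays lacking rad3 DNA were higher than those holding it towards the right ends of all 3 chromosomes, most of all on chromosome III. No single bin passed: limma called 0 of 12051 bins higher and 0 lower (0.0% each), with 396 higher (3.29%) and 140 lower (1.16%) at an unadjusted p under 0.05. With each array's values also scaled to 1 spread, limma called 64 bins higher (0.531%) and 0 lower. Of the 64, 63 lay within 200 kb of a chromosome end, where 1125 of all 12051 bins (9.34%) lie. These were 48 at the right end of chromosome III, 13 at that of I and 2 at that of II. The spread of bins was widest on the array labelled WT replicate 2 (median absolute deviation 0.389) and narrowest on Δrad3 replicate 1 (0.168), and its part in the calls was not tested. Without the array labelled WT replicate 2, limma called 0 bins in either direction, with 667 higher (5.53%) and 262 lower (2.17%) at an unadjusted p under 0.05. With the slide as a block it called 0 as well, with 490 higher (4.07%) and 137 lower (1.14%) unadjusted. The IP channel alone gave 0 calls, with 353 higher (2.93%) and 110 lower (0.913%) unadjusted.

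The 12 bins of smallest p in the upward direction all lay within 200 kb of a right end. The first with gene names held apl4, which encodes a large subunit of the AP-1 clathrin adaptor (III 2401001 to 2402000). It stood at 0.98, 1.29 and 1.07 on the Δrad3 arrays and 1.98 on the array labelled WT replicate 2, against -0.36 and -0.18 on WT replicates 1 and 3. The difference was 1.60 (SE 0.28, adjusted p = 0.244 by limma). Next to it, the bin of are2, a sterol acyltransferase gene (III 2400001 to 2401000), stood at 0.87, 1.42 and 1.18 on the Δrad3 arrays and 1.80 on the array labelled WT replicate 2, against -0.08 and -0.21 on WT replicates 1 and 3. The groups were apart in both bins, and at apl4 the IP channel alone differed by 1.63 and the input by 0.03.

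Further names among the 12 were SPCC569.06 and rpt1. The bin of SPCC569.06 (III 2422001 to 2423000) had the largest difference of the 12, 1.81 (SE 0.36, adjusted p = 0.331 by limma), with 0.63, 1.72 and 1.55 on the Δrad3 arrays and 2.27 on the array labelled WT replicate 2, against -0.06 and -0.48 on WT replicates 1 and 3. Without Δrad3 replicate 1, the lowest of the 4 there, this bin alone passed (2.12, adjusted p = 0.0298 by limma). rpt1, a gene of the proteasome's regulatory particle (II 4343001 to 4344000, 148 kb from the right end), stood at 0.43, 0.63 and 0.77 on the Δrad3 arrays and 0.83 on the array labelled WT replicate 2, against -0.20 and -0.88 on WT replicates 1 and 3. The other 8 bins lay in the last 54 kb of chromosome I, where no gene names could be assigned. There the outermost bin (I 5552001 to 5553000) stood at 1.03, 0.96 and 1.22 on the Δrad3 arrays and 1.48 on the array labelled WT replicate 2, against -0.20 and -0.26 on WT replicates 1 and 3, with a difference of 1.40 (SE 0.23, adjusted p = 0.244 by limma).

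**Figure D3:**
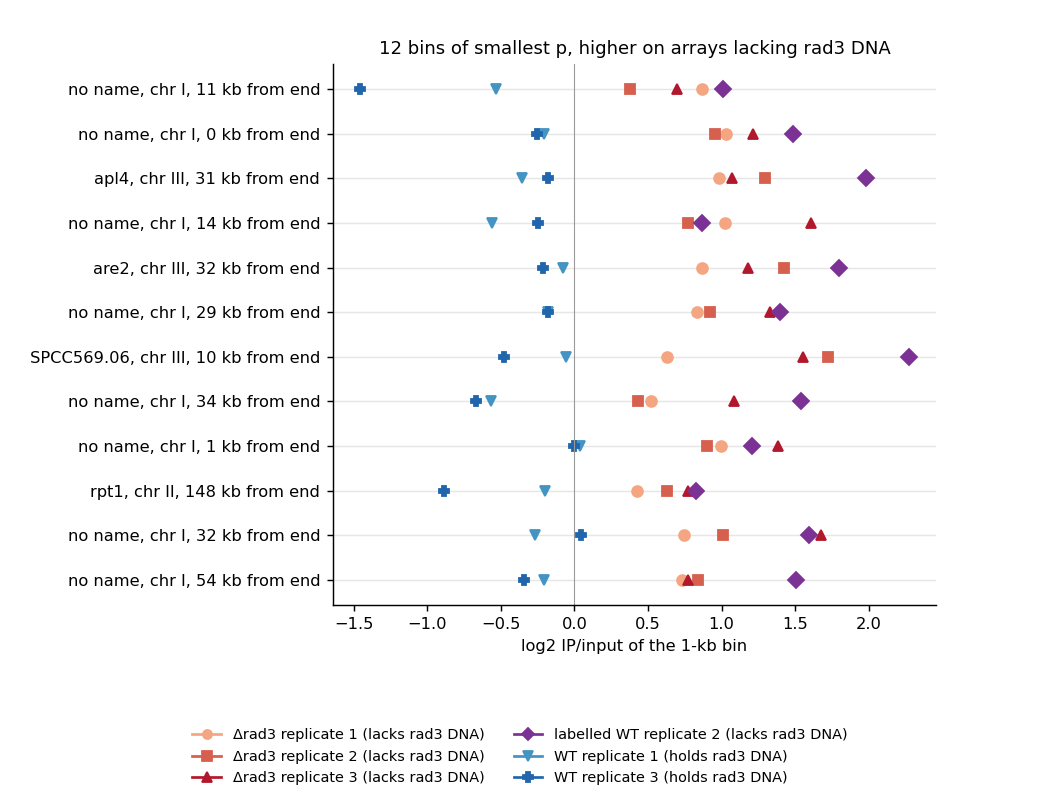
Log2 IP/input of each of the 6 arrays in the 12 bins of smallest p that were higher on arrays lacking rad3 DNA, ordered from the smallest p at the top. In every one of the 12 bins the 4 arrays lacking rad3 DNA lie right of the 2 arrays holding it; in the apl4 bin they lie between 0.98 and 1.98, against -0.36 and -0.18.

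The right end of chromosome III was raised as a slope about 200 kb long. The ribosomal DNA repeats of fission yeast lie at the ends of this chromosome. Over its outermost 50 kb (47 bins) IP/input averaged 0.66, 1.25 and 1.44 on the Δrad3 arrays and 2.16 on the array labelled WT replicate 2, against 0.08 and 0.20 on WT replicates 1 and 3. Further in, at 100 to 150 kb, it was 0.42, 0.59 and 0.77 on the Δrad3 arrays and 1.67 on the array labelled WT replicate 2, against -0.03 and -0.03 on WT replicates 1 and 3. At 200 to 300 kb the Δrad3 arrays were at 0.02, 0.06 and 0.05 and the array labelled WT replicate 2 at 0.46, against -0.04 and 0.03 on WT replicates 1 and 3. The signal thus declined inward on all 4 arrays lacking rad3 DNA, and the Δrad3 means at 200 to 300 kb were near 0. In the 10-kb steps centred at 205 to 235 kb, the Δrad3 arrays still stood at 0.07 to 0.29. WT replicate 1 stood there at -0.11 to -0.02 and WT replicate 3 at 0.05 to 0.36. In the steps centred at 245 to 295 kb the Δrad3 arrays stood at -0.17 to 0.05.

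In this 200-kb stretch all 4 arrays lacking rad3 DNA exceeded both others in 126 of 192 bins and fell below both in 0, against 801 (6.65%) above and 805 (6.68%) below of all 12051 bins. The stretch was chosen after its values were seen and its bins are neighbours, so the counts describe it and test nothing. Its mean difference was 0.90, and it was 0.43 within slide 1, 0.82 within slide 3 and 0.64 without the array labelled WT replicate 2. By label, with that array among the WT arrays, the difference was 0.09. The input averaged -0.21, -0.37 and -0.39 on the Δrad3 arrays and -0.31 on the array labelled WT replicate 2 over the outermost 50 kb, against -0.26 and -0.49 on WT replicates 1 and 3, which overlap, while the IP channel averaged 0.45, 0.87, 1.02 and 1.85 on the 4 arrays in that order, against -0.19 and -0.30.

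Genes of many roles lay along this slope. Besides apl4, are2 and SPCC569.06, the bins that passed after scaling included that of ubp12, a deubiquitinase gene, with the RNA helicase gene dbp9 (III 2332001, difference 1.32). Others were those of cwf18, a spliceosome component gene (III 2405001, 1.46), and of dhm1 with puf6 (III 2409001, 1.35). Those of ade5, a purine biosynthesis gene (III 2412001, 1.13), hom2 of the threonine and methionine pathway (III 2387001, 1.24) and taf13 of the TFIID complex (III 2318001, 1.06) passed too. These values are on the scaled log2 scale. These genes were picked with their values in view.

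The right ends of chromosomes I and II had the same direction with different lengths. Over the outermost 50 kb of I (49 bins) IP/input averaged 0.42, 0.28 and 0.67 on the Δrad3 arrays and 1.19 on the array labelled WT replicate 2, against -0.21 and -0.45 on WT replicates 1 and 3. All 4 arrays lacking rad3 DNA were above both others in 39 of these 49 bins (79.6%), against 6.65% of all bins. These bins are neighbours too, so the count describes this end and tests nothing. At 100 to 150 kb the Δrad3 arrays had come down to 0.05, 0.07 and 0.06, while the array labelled WT replicate 2 stayed at 1.17, against 0.04 and -0.04 on WT replicates 1 and 3. Over the outermost 50 kb of II (49 bins) the means were 0.33, 0.29 and 0.51 on the Δrad3 arrays and 1.13 on the array labelled WT replicate 2, against 0.13 and 0.16 on WT replicates 1 and 3. Their difference of 0.42 was 0.23 without the array labelled WT replicate 2 and -0.10 by label.

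On I and II a plateau was therefore seen on 1 array, and a shorter rise on the Δrad3 arrays. In steps of 10 kb, the array labelled WT replicate 2 stayed above 0.25 in all 20 steps of the outermost 200 kb at each of the 3 right ends and first fell below it at 250, 210 and 250 kb on I, II and III. Δrad3 replicates 1, 2 and 3 were above 0.25 in 5, 5 and 9 of the 20 steps on I and 4, 4 and 8 on II, but in 20, 17 and 18 on III. WT replicates 1 and 3 were above it in 0 and 2 steps on I, 1 and 2 on II, and 1 and 5 on III.

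**Figure D4:**
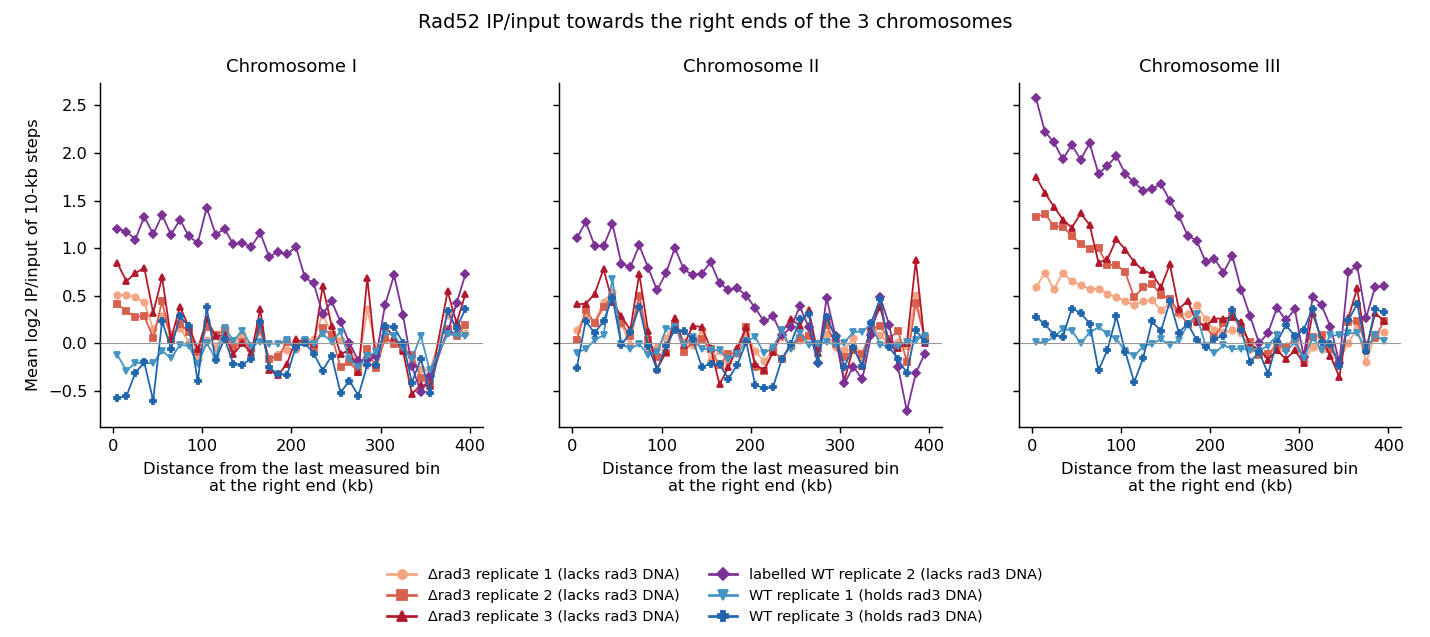
Mean log2 IP/input in steps of 10 kb against distance from the last measured bin at the right end of chromosomes I, II and III, for the 4 arrays lacking and the 2 arrays holding rad3 DNA. On III all 4 arrays lacking rad3 DNA slope down from the end, from means of 0.66 to 2.16 over the outermost 50 kb; on I and II only the array labelled WT replicate 2 stays high to about 200 kb.

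Over the outermost 50 kb of the left ends, the array labelled WT replicate 2 did not stand with the Δrad3 arrays on II, and the groups overlapped on II and III. Over the outermost 50 kb of II, IP/input averaged 0.18, 0.04 and 0.27 on the Δrad3 arrays and -0.49 on the array labelled WT replicate 2, against -0.20 and -0.21 on WT replicates 1 and 3. On III it was 0.14, 0.28 and 0.39 on the Δrad3 arrays and 0.54 on the array labelled WT replicate 2, against 0.01 and 0.33 on WT replicates 1 and 3. Over the outermost 50 kb of I, with 16 bins, it was 0.27, 0.01 and 0.22 on the Δrad3 arrays and 0.04 on the array labelled WT replicate 2, against -0.04 and -0.36 on WT replicates 1 and 3, a difference of 0.34 without overlap. Within slides 1 and 3 the Δrad3 array exceeded the WT array by 0.31 and 0.59 at the left end of I and by 0.38 and 0.49 at that of II, which is more than the 0.19 and 0.35 at the right end of II. The left end of III gave 0.12 and 0.07. In the next band of the left end of I, 50 to 100 kb (48 bins), the groups overlapped. There IP/input averaged 0.29, 0.21 and 0.56 on the Δrad3 arrays and -0.23 on the array labelled WT replicate 2. WT replicates 1 and 3 stood at -0.15 and -0.02. Within 200 kb of any end, the 4 arrays were above both others in 271 of 1125 bins (24.1%) and below both in 33 (2.93%), and farther inside in 529 of 10906 (4.85%) and 772 (7.08%).

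The subtelomere list took 50 kb of chromosomes I and II from the first coordinate and from the last probe, where not every bin was measured, so it holds fewer bins than the bands counted from the outermost measured bins. Its 120 bins averaged 0.33, 0.21 and 0.52 on the Δrad3 arrays and 0.69 on the array labelled WT replicate 2, against -0.07 and -0.18 on WT replicates 1 and 3. The median difference of its bins was 0.53, against -0.00 over all bins, and 50 of the 120 (41.7%) had all 4 arrays above both others, against 6.65% of all bins.

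AT-rich islands, the sequence feature of fission yeast origins, overlapped between the 2 groups in IP/input but not in the IP channel alone. In that channel the island bins averaged 0.71, 0.75 and 0.49 on the Δrad3 arrays and 0.68 on the array labelled WT replicate 2. WT replicates 1 and 3 stood at 0.30 and 0.05. Their input overlapped, and was low on slide 3, at -0.20 on Δrad3 replicate 3 and -0.30 on WT replicate 3. The 322 island bins exceeded the other annotated bins, on average, by 0.39, 0.45 and 0.70 on the Δrad3 arrays and 0.34 on the array labelled WT replicate 2, against -0.07 and 0.38 on WT replicates 1 and 3. WT replicate 3 lay within the range of the arrays lacking rad3 DNA, and the array labelled WT replicate 2 was the lowest of the 4. The means were 0.47 ± 0.16 (SD, n = 4) and 0.15 ± 0.32 (SD, n = 2), a difference of 0.32. The exact two-sided permutation test gave p = 0.133, where 4 arrays against 2 have 15 arrangements and allow no p below 0.0667, so it could not have passed 0.05. That difference was 0.10 without WT replicate 1 and 0.55 without WT replicate 3. Within slides, the mean of the island bins was higher on the Δrad3 array by 0.46 on slide 1 and 0.36 on slide 3. Of the 322 island bins, 59 (18.3%) had all 4 arrays above both others and 0 below, against 6.65% and 6.68% of all bins. The 3 island bins of largest difference all lay on the slope of chromosome III, led by the bin at III 2428001 to 2429000, next to SPCC569.05C (0.84, 1.94 and 1.86 on the Δrad3 arrays and 2.63 on the array labelled WT replicate 2, against -0.11 and 0.85 on WT replicates 1 and 3).

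Divergent intergenic regions, which hold the promoters of 2 genes, gave 147 of 1048 bins (14.0%) with all 4 arrays above both others and 15 (1.43%) below, against 6.65% and 6.68% of all bins, with a median difference of 0.16. Their mean IP/input was nonetheless 0.03, 0.07 and 0.13 on the Δrad3 arrays and -0.05 on the array labelled WT replicate 2, against -0.22 and -0.04 on WT replicates 1 and 3, and WT replicate 1 alone stood clearly apart. The IP channel alone did not overlap. It averaged 0.08, 0.10 and -0.04 on the Δrad3 arrays and 0.02 on the array labelled WT replicate 2, against -0.15 and -0.21 on WT replicates 1 and 3. Convergent intergenic regions gave 11 of 445 above (2.47%) and 37 below (8.31%), the second share being near that of all bins (6.68%), with a median difference of -0.05.

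Genes read by RNA polymerase III and small RNA genes were above 0 on all 6 arrays and overlapped between the groups. The 117 bins of tRNA genes averaged 0.34, 0.42 and 0.44 on the Δrad3 arrays and 0.41 on the array labelled WT replicate 2, against 0.33 and 0.52 on WT replicates 1 and 3, with a median difference of 0.00. The 37 bins of 5S rRNA genes ranged from 0.44 to 0.72 on the arrays lacking rad3 DNA, against 0.41 and 0.68 on the arrays holding it. All 4 arrays were above both others in 1 of the 37 bins (2.70%) and below both in 2 (5.41%). Both shares were under those of all bins, 6.65% and 6.68%. The bin above was that of SPRRNA.07, which lies on the slope of chromosome III (III 2308001 to 2309000) and stood at 1.46, 1.42 and 2.19 on the Δrad3 arrays and 1.89 on the array labelled WT replicate 2, against 0.60 and 0.88 on WT replicates 1 and 3. Small nuclear and nucleolar RNA genes (63 bins) ranged from 0.22 to 0.37 on the arrays lacking rad3 DNA, against 0.37 and 0.29.

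Among lists of protein genes, those of glycolysis and of histones had median differences below -0.2, and the others were nearer 0. Glycolysis and fermentation genes (39 bins) averaged 0.11, 0.07 and -0.00 on the Δrad3 arrays and 0.16 on the array labelled WT replicate 2, against 0.43 and 0.17 on WT replicates 1 and 3. The 4 arrays were below both others, the nearest pair at 0.16 against 0.17, and the median difference was -0.24. The bin of pfk1, the phosphofructokinase gene (II 2299001 to 2300000), had the largest difference of the list at -0.66 (adjusted p = 0.925 by limma). The 7 histone bins had a median difference of -0.29 and overlapped, from -0.01 to 1.04 on the arrays lacking rad3 DNA, against 1.01 and 0.36. Ribosomal protein genes (205 bins, median difference -0.03), heat shock genes (29 bins, -0.07), MBF targets of the G1/S transcription program (39 bins, -0.07) and the 210 bins around the centromeres of chromosomes II and III (-0.06) overlapped between the groups.

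The lists of recombination and checkpoint genes had means near 0 on all 6 arrays. The 59 bins of homologous recombination genes averaged -0.01, -0.01 and -0.02 on the Δrad3 arrays and -0.12 on the array labelled WT replicate 2, against -0.03 and -0.04 on WT replicates 1 and 3. The rad52 gene itself (9 probes) was well above 0 and overlapped between the groups, at 0.60, 0.31 and 0.45 on the Δrad3 arrays and 0.69 on the array labelled WT replicate 2, against 0.55 and 0.85 on WT replicates 1 and 3. The 46 bins of checkpoint genes lay between -0.05 and 0.02 on the arrays lacking rad3 DNA, against -0.02 and -0.07. Ribonucleotide reductase genes, whose enzyme HU inhibits, had only 3 bins, with 0.06, 0.35 and 0.58 on the Δrad3 arrays and 0.29 on the array labelled WT replicate 2, against 0.11 and 0.63 on WT replicates 1 and 3. The 20 bins of the mitochondrial genome overlapped as well, from -0.72 to 0.27 on the arrays lacking rad3 DNA, against -0.49 and -0.38.

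**Figure D5:**
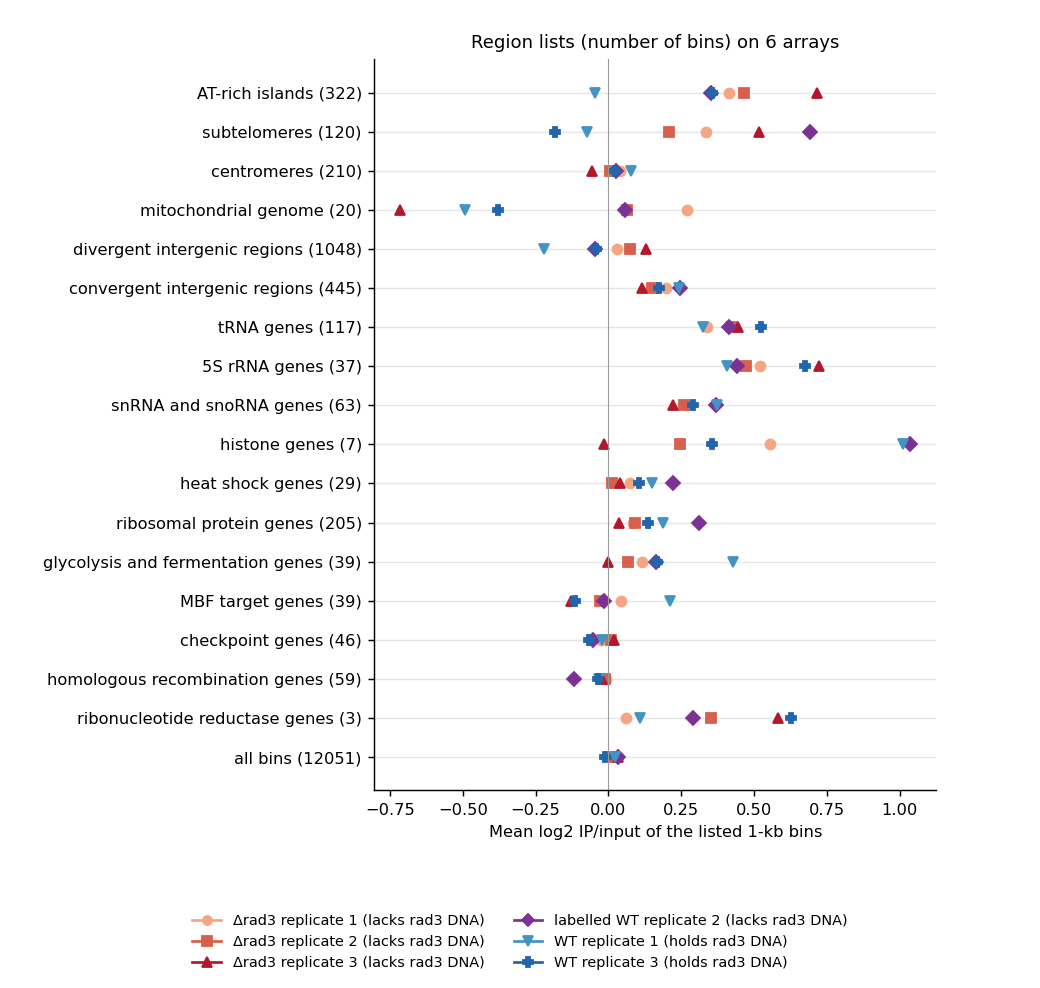
Mean log2 IP/input of each list of 1-kb bins (number of bins in brackets) on each of the 6 arrays. The subtelomere list is the one where all 4 arrays lacking rad3 DNA stand clearly above both arrays holding it, at 0.21 to 0.69 against -0.07 and -0.18; islands, tRNA genes and most gene lists overlap.

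Bins that were lower on the arrays lacking rad3 DNA were scattered and changed less. The 12 of smallest p had differences of -0.64 to -0.83 and adjusted p-values of 0.636 or more by limma. Among them was dnm1, a dynamin-related gene of mitochondrial fission (II 2459001 to 2460000), at -0.04, -0.37 and -0.51 on the Δrad3 arrays and -0.47 on the array labelled WT replicate 2, against 0.26 and 0.64 on WT replicates 1 and 3. The bin of tcg1, which encodes a telomere-binding protein, with egt2 (II 216001 to 217000) stood at 0.12, 0.09 and -0.41 on the Δrad3 arrays and 0.39 on the array labelled WT replicate 2, against 0.89 and 0.87 on WT replicates 1 and 3. That of pyr1, the pyruvate carboxylase gene (II 2192001 to 2193000), stood at 0.02, 0.08 and -0.36 on the Δrad3 arrays and 0.24 on the array labelled WT replicate 2, against 0.54 and 0.95 on WT replicates 1 and 3. The groups did not overlap in these bins. The other named ones were gea1, an Arf exchange factor gene (difference -0.82), bgs1, a glucan synthase gene (-0.80), orm1 of sphingolipid control (-0.68), nep1 with hrd1 (-0.70), med8 with ral2 (-0.65), pcl1 (-0.64), cfh1 with the septation kinase gene sid2 (-0.71) and SPAC11D3.15 (-0.71). All 805 bins with the 4 arrays below both others had a mean difference of -0.39 and a median A+T content of 62.1%, and the 801 above had 0.57 and 66.1%, where all bins had 64.0%.

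The array labelled WT replicate 2 was next set against the Δrad3 arrays, since all 4 lack rad3 DNA. A limma fit of 3 groups, in which this single array was assumed to vary like the others, called 132 bins higher (1.1%) and 153 lower (1.27%) on it, where 10.9% and 9.43% had an unadjusted p under 0.05 in those directions. After scaling to 1 spread, 0 were higher and 38 lower. Against WT replicates 1 and 3, the same fit called 256 bins higher (2.12%, 8.78% unadjusted) and 48 lower (0.398%, 7.35% unadjusted) on the array labelled WT replicate 2. Its spread of bins (median absolute deviation 0.389) exceeded that of the Δrad3 arrays (0.168 to 0.272), so the assumption of equal spread was not met and the unscaled calls describe this array more than they test it.

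The bins higher on it were mostly the plateaus at the right ends: 111 of the 132 lay within 200 kb of an end, 55 on the right of I, 45 on the right of III and 8 on the right of II. Of all bins, 9.34% lie within 200 kb of an end. An exception to the plateaus was ade6, the purine biosynthesis gene whose mutants turn colonies red (III 1316001 to 1317000, 1116 kb from the end). It stood at 1.53 on the array labelled WT replicate 2, against -0.28, -0.06 and -0.09 on the Δrad3 arrays. WT replicates 1 and 3 stood at -0.19 and -0.12 there. The difference of 1.68 passed in limma (adjusted p = 0.0188), but not with the arrays scaled to 1 spread (1.11, adjusted p = 0.195). Near the right end of chromosome III, SPCC569.05C (III 2425001 to 2426000) stood at 2.82 on the array labelled WT replicate 2, against 0.07, 0.90 and 1.54 on the Δrad3 arrays (1.98, adjusted p = 0.0381 by limma). After scaling to 1 spread it differed by 0.85 (adjusted p = 0.795 by limma), and no bin higher on this array passed. The same fit did not call hhf3, a histone H4 gene (1.62, adjusted p = 0.0705).

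The bins lower on the array labelled WT replicate 2 were chosen for being below the Δrad3 arrays, so their levels are a description. The array labelled WT replicate 2 averaged -0.95 over the 153 bins, against 0.48, 0.39 and 0.69 on the Δrad3 arrays, while WT replicates 1 and 3 had -0.09 and -0.03. Of the 131 annotated ones, 47 (35.9%) overlapped an AT-rich island, against 7.42% of all annotated bins.

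At mex67, the mRNA export factor gene (II 2410001 to 2411000, an island bin), it stood at -0.95, against 1.64, 1.16 and 2.12 on the Δrad3 arrays, a difference of -2.59 (adjusted p = 0.0166 by limma). WT replicates 1 and 3 had 0.01 and 0.25. In the island between mug147 and a tRNA gene (II 4106001 to 4107000) it stood at -0.34, against 1.74, 1.80 and 2.50 on the Δrad3 arrays, with 0.09 and 0.64 on WT replicates 1 and 3. At csk1, a gene of a CDK-activating kinase (I 649001 to 650000), it stood at -1.24, against 0.73, 0.81 and 1.52 on the Δrad3 arrays, with -0.41 and -0.41 on WT replicates 1 and 3. So at these 3 loci the array labelled WT replicate 2 lay below the Δrad3 arrays and also below WT replicates 1 and 3. The same held between erm1 and rpa12, between arv1 and sdh2, at stg1 with mug114, at SPATRNATHR.01 and between SPAPJ695.01C and ght3 (I 79001 to 80000), with differences of -2.04 to -2.12. All 10 bins of largest difference in this direction, 2 of them without a name, kept an adjusted p under 0.05 in limma with the arrays scaled to 1 spread.

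The Δrad3 arrays resembled one another more than they resembled the array labelled WT replicate 2. As a description over 12051 bins that share probes, IP/input correlated at 0.51 to 0.60 among the Δrad3 arrays. The array labelled WT replicate 2 correlated at 0.34, 0.49 and 0.41 with Δrad3 replicates 1, 2 and 3. With WT replicates 1 and 3 it correlated at 0.29 and 0.45. Within slides 1 and 3 the Δrad3 array and the WT array correlated at 0.46 and 0.49. WT replicates 1 and 3 correlated at 0.30. Away from the chromosome ends, the array labelled WT replicate 2 correlated at 0.34 and 0.53 with WT replicates 1 and 3. With Δrad3 replicates 1, 2 and 3 it correlated there at 0.30, 0.43 and 0.36. The array labelled WT replicate 2 also carried slow waves: over 113 windows of 100 kb more than 200 kb from an end, its means ranged from -0.57 to 0.62, against -0.20 to 0.26 on the Δrad3 arrays and -0.27 to 0.18 on WT replicates 1 and 3. Its highest window, I 5300001 to 5400000, adjoined the raised right end of I, where the 10-kb step centred at 205 kb stood at 1.01. Deep inside that chromosome, the window I 3500001 to 3600000 stood at 0.42. The part that DNA preparation, labelling or scanning had in the waves and in the raised ends was not tested.

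With groups as labelled, 3 Δrad3 arrays against 3 labelled WT, limma called 1 bin higher (0.0083%) and 0 lower, with 4.65% higher and 2.39% lower at an unadjusted p under 0.05. The count depended on the processing: it was 90 higher and 1 lower with the slide as a block, and 115 and 1 with scaling to 1 spread. The bin called without either was I 5315001 to 5316000, at 1.44, 1.73 and 2.22 on the Δrad3 arrays. There the array labelled WT replicate 2 stood at 0.12 and WT replicates 1 and 3 at -0.18 and 0.00. This bin was picked by a fit that counts the array labelled WT replicate 2 among the WT arrays. Its place with WT replicates 1 and 3 there follows from that choice. At the right ends that array stood with the Δrad3 arrays. These comparisons share arrays with the split by rad3 DNA and are no separate evidence.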

How the data were processed

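The deposited files are output of Agilent Feature Extraction 10.7.3.1, per the submitters' processing notes, for 2-colour arrays with input in red and IP in green on every array, per the labels. The processed intensity was background-subtracted and dye-normalized with linear terms by the authors, per the file headers, and the deposited log10 ratio equals that of the processed signals for nearly all spots. The headers name the build Spombe:NCBI:Feb2002. One dye orientation means that a dye bias cancels only where it is equal on all arrays.

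Here log2 IP/input was centred on each array's median. For the bins, control spots and spots marked as outliers were left out. Probes needed input well above background on 3 or more of 6 arrays, and 1-kb bins at least 2 probes, without those of rad3. Values of single probes, and probe means at rad3, its neighbours, the markers and rad52, left out control spots only. They kept spots marked as outliers, which numbered 3535 on Δrad3 replicate 2 and 4 to 464 on the other arrays. limma 3.58.1 (R 4.3.3) tested 12051 bins with Benjamini-Hochberg adjustment. It was run on simulated bins with known differences, drawn independently and with the same spread on every array. The real arrays differ in spread and share slides, and neighbouring bins are correlated, so that run does not cover these conditions. Names came from ASM294v3 where 107 of 107 windows matched to within 20 bp. Beyond 3.7 Mb of chromosome I 6236 probes (14.6%) stayed unnamed. Islands were 1000-bp windows with at least 72% A+T, at least 50% outside coding sequence.

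The members, lists and tests were chosen with earlier results of these data known. Named were rad3, its neighbours and markers, runs of changed input, the 12 bins of smallest p in each direction, the 10 bins in each direction that most separated the array labelled WT replicate 2 from the Δrad3 arrays, and up to 3 bins per list; exceptions are marked. Arrays of the same number share a slide. Their deviations from the group means correlated at 0.47, 0.0994 and 0.26 for numbers 1, 2 and 3, not all over 0.1, so the number was not taken as a pairing. The number of arrays limits the precision.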

Additional observations from a re-analysis of the deposited data

Results flagged for a closer look

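Among the 4 arrays lacking rad3 DNA, 53 values (ends in bands, region lists and marker inputs) were checked for a sample far from the other 3 by Dixon's criterion, which flags about 1 in 20 groups by chance. It marked 11, each time the array labelled WT replicate 2. At the right end of chromosome I it stood at 1.19, 1.17 and 1.00 at 50 to 100, 100 to 150 and 150 to 200 kb, and at that of II at 0.78, 0.79 and 0.63 in the same bands. At the right end of III it stood at 1.18 at 150 to 200 kb and 0.46 at 200 to 300 kb. At the left ends it stood at 0.18 on I (100 to 150 kb) and 0.45 on III (200 to 300 kb). The last was the mean of homologous recombination genes, -0.12. Bands next to each other share the same slow rise and are not separate cases.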

How the results depend on the processing

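For the split by rad3 DNA, limma called 0 bins higher and 0 lower in IP/input, and 0 to 1 higher and 0 lower with 1 array left out at a time. With groups as labelled it called 1 higher, with the arrays scaled to 1 spread 64, and among the arrays that share the RNA protocol text (3 Δrad3 arrays against WT replicate 3, a lone array assumed to vary like the others, with no replicate of its own) 41; no run called a bin lower. The input gave 0 calls in every run, also with any 1 array left out. The island excess, whose exact test cannot pass 0.05, kept its sign in all 19 alternatives, from 0.10 to 0.55 with 1 array left out, at 0.47 and 0.33 within slides 1 and 3, and at 0.40 with the replicate block. By label, the 1 higher and 0 lower calls became 90 and 1 with the replicate block, 76 and 0 with normexp background, 115 and 1 with scaling, 2 and 0 with trended robust variances and 0 and 0 with 2-kb bins. For the array labelled WT replicate 2 against the Δrad3 arrays, 132 higher and 153 lower became 401 and 308 with the replicate block, 348 and 259 with 2-kb bins, 68 and 190 with normexp background and 0 and 38 with scaling, and 107 were lower among probes above background on all arrays. By label the right end of chromosome II reversed, at -0.10 over 50 kb. The replicate block is the slide; same-numbered arrays did not all deviate together, so these are block results and no pairing, and it changed no call of the split. Loess acts on ratios only, so it gave no input value. Single-slide counts could not be tested, with 1 array a side. The cause of these changes was not tested. Depth limits little here except on slide 3, where the input is 5.04 to 6.53 times background.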
